A study of Homo sapiens with 6 samples.

Results

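The SOX, KLF and SP transcription factors, with a set of pluripotency genes, were examined in J82 cells with and without FOXC1 knockout. Members were the protein-coding rows whose symbol was SOX or KLF followed by a number, together with SP1 to SP8, POU5F1, NANOG, LIN28A, LIN28B, SALL1, SALL2, SALL4, BMI1 and PRDM14. This gave 52 genes among the 57820 rows of the count table, of which 19 were SOX, 16 KLF, 8 SP and 9 pluripotency genes. The rule itself used no expression value, though the members were chosen with earlier results of these data known. KLF14 had no matched row and was not analysed here.

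SOX factors bind DNA through a high-mobility-group box and set lineage and progenitor programmes, from neural and cartilage cells to endothelium. KLF and SP factors share a zinc finger domain that reads GC boxes and CACCC boxes, and different members activate or repress from the same kind of site. SOX2, KLF4 and POU5F1 act with NANOG, LIN28 proteins and SALL4 in pluripotent stem cells, while KLF4 and KLF5 are also widely used by epithelia such as the urothelium.

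J82 is an established human bladder cancer cell line. Polyadenylated RNA was sequenced from 3 control libraries and 3 libraries labelled KO, the former from cells carrying a vector and the latter from cells given the lentiCRISPR v2 CRISPR/Cas9 construct against FOXC1, a forkhead transcription factor. Cells were selected with puromycin and the knockout was checked by Western blotting, per the study's methods, which speak of clones without giving their number. The labels do not say whether libraries of a group came from separate cultures, so p-values measure the spread between libraries, which may be technical.

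Each library held between 18408134 and 25350908 counts assigned to genes. Levels are given as CPM, read counts scaled to library size after TMM normalization, and group values as mean ± SD (n = 3 libraries). FOXC1 transcript was 18.2 ± 1.21 CPM in control and 22.5 ± 1.495 CPM in the KO libraries (log2 fold change 0.30, SE 0.091, edgeR quasi-likelihood adjusted p = 0.0127), so it did not fall and does not check the labels. A gene was called when its Benjamini-Hochberg adjusted p was under 0.05 and its fold change over 1.3. Of 15647 genes tested, 8.39% were called lower, 7.57% higher and 16.0% in either direction, 29.4% had an adjusted p under 0.05 at any fold, and in 41.3% the groups did not overlap.

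The KO libraries had lower KLF4, KLF9, KLF10, KLF5, SOX6 and SALL2 and higher KLF17, SP6, SOX15, LIN28B, SALL4 and SOX7 than the control libraries. These 12 genes, 6 in each direction, were 36.4% of the 33 members that passed the filter on low counts, beside 16.0% of all tested genes. Another 5 members had an adjusted p under 0.05 with a fold change short of 1.3, which makes 51.5% at any fold beside 29.4%, and 16 did not pass the test. Groups did not overlap in 20 of the 33 tested members (60.6%, beside 41.3%), 13 with the KO libraries below and 7 with them above. The median log2 fold change over tested members was 0.02, beside -0.0008 over all tested genes, and the median size regardless of sign was 0.31 beside 0.18. The remaining 19 members lay under the filter, and the counts above do not cover them.

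**Figure D1:**
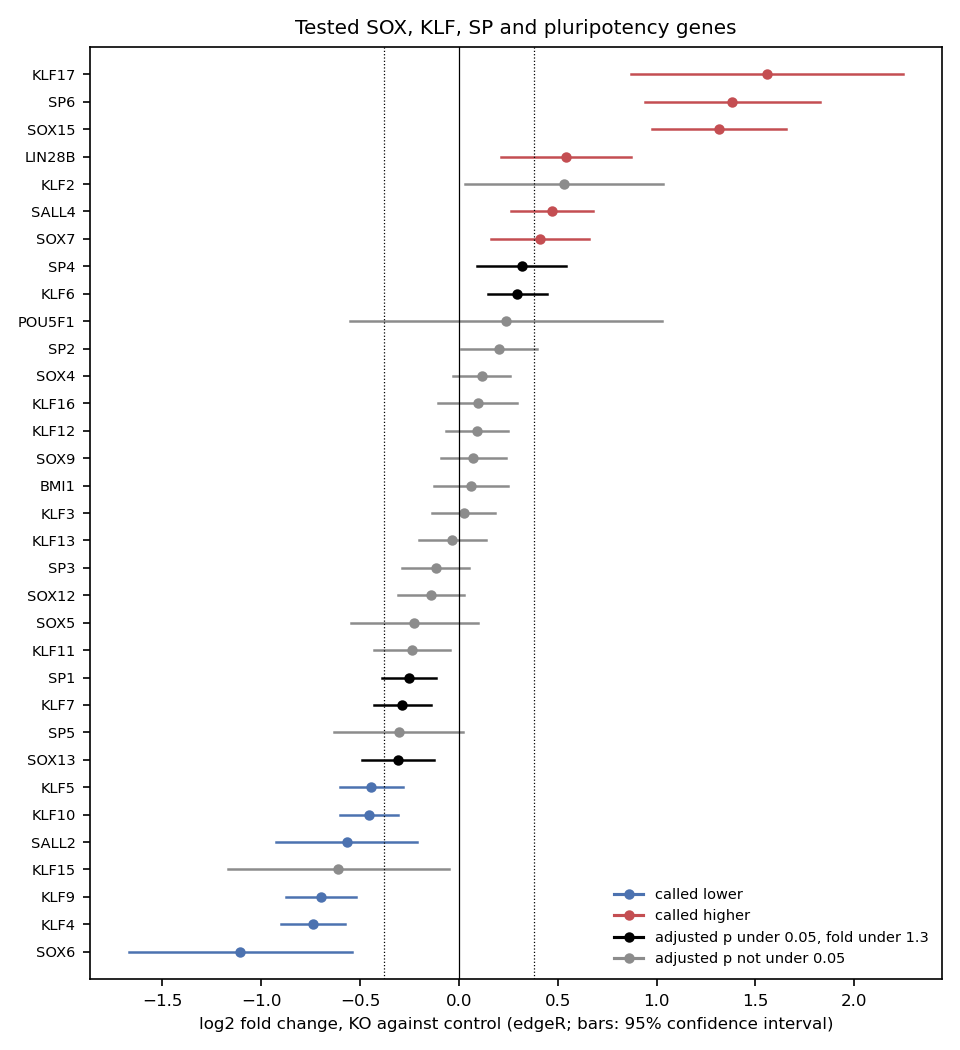
Log2 fold change of each of the 33 tested members, KO against control (x axis; points), with its 95% confidence interval from edgeR (bars); dotted lines mark a fold change of 1.3. The 6 members called lower lie toward the bottom, down to SOX6 at -1.10, and the 6 called higher toward the top, up to KLF17 at 1.56. KLF15 (-0.61) and KLF2 (0.53), which were not called, lie among them.

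Levels between genes were compared as CPM per kb of exon. The highest mean levels over the 6 libraries belonged to KLF10 (24.9 CPM per kb), KLF6 (24.8) and SP1 (20.1), with SOX4 and KLF5 next, then SOX9 (12.4) and KLF4 (11.8). KLF10 and KLF6 changed places between the groups: KLF10 was first among KLF and SP genes in control, with 17.3% of their summed level, and KLF6 in the KO libraries, with 18.8%. Summed over KLF and SP members, the level was 165.9 ± 3.43 CPM per kb in control and 145.6 ± 4.30 in the KO libraries (exact permutation test, two-sided, p = 0.1, the smallest 3 against 3 libraries can give). Summed SOX levels were 48.9 ± 1.53 and 51.9 ± 1.86 CPM per kb (exact permutation p = 0.1), with SOX4, SOX9 and SOX12 giving 83.9% of the sum in control. The log2 ratio of the SOX sums was 0.0847, against 0.0231 (exact permutation p = 0.6) without division by exon length and 0.0511 (exact permutation p = 0.2) without KO replicate 1. The pluripotency members summed to 12.8 ± 0.932 and 14.05 ± 1.47 CPM per kb (exact permutation p = 0.5), and BMI1 alone gave 73.4% of the control sum.

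**Figure D2:**
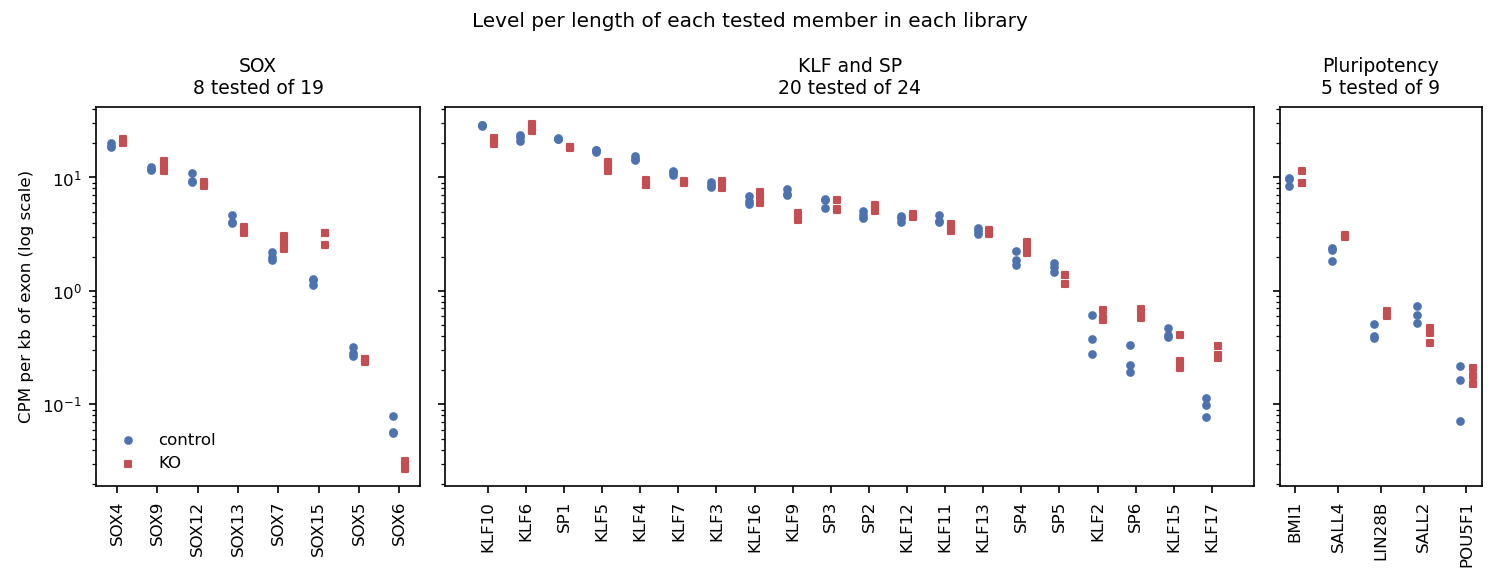
CPM per kb of exon (y axis, log scale) of each tested member in each control library (circles) and KO library (squares), ordered by mean level within SOX, KLF with SP, and pluripotency genes. KLF10, KLF6, SP1 and SOX4 have the highest mean levels, and SOX6, KLF17 and POU5F1 the lowest of their panels.

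Promoter windows, the 250 bases before the RefSeq start (GRCh38.p14, 1 start per gene), were on hand for 25 of the 33 tested members. Windows were searched on both strands for the GC box GGGCGG and the CACCC box CCNCNCCC, which KLF and SP factors read, and for the forkhead letters GTAAACA and the SOX letters AACAAT. A GC box stood in 18 of the 25 windows (72%), against 42.3% of 27305 windows of all genes, and a CACCC box in 18 (72%), against 52.4%. Both can cover the same bases, and 9650 windows held both. The member windows belong to genes that passed the filter on low counts, while the windows of all genes were not filtered. The median share of G or C was 65.6% in the member windows and 58.0% in all windows. Its part in the box shares was not tested. The forkhead letters were in 1 member window, that of SOX12, against 2.98% of all windows, and the SOX letters in 3, those of KLF5, KLF12 and SOX5, against 9.19%. The windows below belong to KLF genes called lower and to the 2 genes called higher that had an entry. They show how unlike these starts are, with capitals marking GC box and CACCC box matches. Coordinates are chr9:107489770-107490019 for KLF4 and chr9:70414658-70414907 for KLF9, both minus strand, and, on the plus strand, chr13:73054726-73054975 for KLF5, chr1:44118571-44118820 for KLF17 and chr6:104940715-104940964 for LIN28B. Other starts of these genes were not examined.
KLF4: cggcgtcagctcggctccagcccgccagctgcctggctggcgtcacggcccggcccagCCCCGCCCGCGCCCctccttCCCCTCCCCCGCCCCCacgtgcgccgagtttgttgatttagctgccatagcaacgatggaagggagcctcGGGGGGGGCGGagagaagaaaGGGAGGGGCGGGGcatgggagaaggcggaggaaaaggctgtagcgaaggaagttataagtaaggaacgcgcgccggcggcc
KLF9: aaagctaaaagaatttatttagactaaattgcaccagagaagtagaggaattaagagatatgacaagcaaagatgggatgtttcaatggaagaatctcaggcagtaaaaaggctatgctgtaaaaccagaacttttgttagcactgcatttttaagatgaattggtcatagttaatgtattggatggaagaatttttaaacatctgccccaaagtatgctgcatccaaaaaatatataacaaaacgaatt
KLF5: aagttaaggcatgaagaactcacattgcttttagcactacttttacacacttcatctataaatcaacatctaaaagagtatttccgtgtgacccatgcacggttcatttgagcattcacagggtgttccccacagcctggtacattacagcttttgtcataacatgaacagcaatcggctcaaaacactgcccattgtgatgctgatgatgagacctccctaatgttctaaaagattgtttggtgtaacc
KLF17: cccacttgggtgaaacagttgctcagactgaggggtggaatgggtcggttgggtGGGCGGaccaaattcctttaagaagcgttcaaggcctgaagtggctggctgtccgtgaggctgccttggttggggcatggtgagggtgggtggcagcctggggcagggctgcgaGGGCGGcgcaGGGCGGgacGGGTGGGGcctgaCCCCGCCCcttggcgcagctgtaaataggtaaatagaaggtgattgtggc
LIN28B: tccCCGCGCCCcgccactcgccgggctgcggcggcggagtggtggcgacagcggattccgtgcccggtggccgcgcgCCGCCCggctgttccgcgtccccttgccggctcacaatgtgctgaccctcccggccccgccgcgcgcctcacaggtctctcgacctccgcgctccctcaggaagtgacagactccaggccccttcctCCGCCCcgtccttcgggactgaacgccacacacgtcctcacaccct
The KLF4 window held 4 GC box and 10 CACCC box matches, KLF17 held 4 and 2, and LIN28B held 2 and 1. Matches were counted at every start, so matches of the same box can also overlap and are not separate sites. All matches together covered 54 bases in KLF4, 34 in KLF17 and 20 in LIN28B. The KLF9 and KLF5 windows held neither, and 32.4% and 40.8% of their bases were G or C. A match is a description of letters, and binding was not measured here.

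Among the KLF activators, KLF4 and KLF5 fell. KLF4 (ENSG00000136826.10, GRCh37 chr9:110247133-110252763), a pluripotency factor that also supports epithelial differentiation, was at 51.8, 53.8 and 57.0 CPM in control replicates 1 to 3 and at 34.7, 31.6 and 31.3 CPM in the KO replicates. Every KO library lay below every control library. The means were 54.2 ± 2.60 and 32.5 ± 1.90 CPM (log2 fold change -0.74, SE 0.080, edgeR adjusted p = 2.38e-08), a 1.67-fold decrease.

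KLF5 (ENSG00000102554.9, chr13:73629114-73651679), a factor of proliferating epithelial cells, was at 64.2, 62.2 and 64.3 CPM in control and at 47.7, 42.3 and 50.5 CPM in the KO libraries. The groups did not overlap (log2 fold change -0.44, SE 0.079, edgeR adjusted p = 7.39e-05). Without KO replicate 2, its lowest library, the log2 fold change was -0.37 (edgeR adjusted p = 0.0018), which falls short of the fold threshold.

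The other activators differed in direction. KLF7, a factor of neurons and fat cell precursors, ranged from 102.1 to 109.9 CPM in control and from 86.7 to 88.8 CPM in the KO libraries (log2 fold change -0.29, edgeR adjusted p = 0.00235). KLF6, a broadly expressed member that responds to injury, ranged from 127.6 to 144.2 CPM and from 157.7 to 180.9 CPM (log2 fold change 0.29, edgeR adjusted p = 0.00262). Neither reached a fold change of 1.3, though their groups did not overlap. KLF2, which maintains quiescence in endothelium and T cells, had 20 to 48 counts and overlapping groups (log2 fold change 0.53, 95% confidence interval 0.03 to 1.03, edgeR adjusted p = 0.102). KLF1, the erythroid factor, had 0 counts in all 6 libraries.

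Of the KLF repressors that bind Sin3, KLF9 and KLF10 fell, 2 of the 5 tested. KLF9 (ENSG00000119138.3, chr9:72999520-73029573), which glucocorticoid and thyroid hormone induce, was at 36.4, 37.3 and 41.1 CPM in control and at 23.2, 22.1 and 25.4 CPM in the KO libraries. Its highest KO library stayed below its lowest control library (38.2 ± 2.49 against 23.6 ± 1.70 CPM, log2 fold change -0.70, SE 0.086, edgeR adjusted p = 2.62e-07). KLF10 (ENSG00000155090.10), an early TGF-beta response gene, was at 110.5, 108.7 and 110.4 CPM in control and at 79.2, 75.8 and 85.3 CPM in the KO libraries. The control values lay close together and the KO values below them (log2 fold change -0.46, SE 0.072, edgeR adjusted p = 1.27e-05).

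The other Sin3-binding members did not pass the test. KLF11, another TGF-beta response gene, ranged from 18.6 to 21.3 CPM in control and from 15.6 to 17.9 CPM in the KO libraries (log2 fold change -0.24, edgeR adjusted p = 0.0582). KLF13 had a log2 fold change of -0.03 (95% confidence interval -0.20 to 0.14) and KLF16 of 0.09 (-0.10 to 0.29). Among the repressors that bind CtBP, KLF3 had 0.02 (-0.14 to 0.18) and KLF12 0.09 (-0.06 to 0.25), and KLF8 had at most 2 counts. KLF12 neighbours KLF5 at 631.1 kb on chromosome 13 and, unlike it, was not called.

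KLF17 (ENSG00000171872.4, chr1:44584493-44600812), a factor of the early human embryo, rose from very few reads. It was at 0.357, 0.246 and 0.314 CPM in control and at 0.869, 1.03 and 0.807 CPM in the KO libraries, from 6 to 26 counts per library. The groups did not overlap and the log2 fold change was 1.56 (95% confidence interval 0.87 to 2.25, edgeR adjusted p = 6.99e-04). Within 500 kb of KLF17, 15 other genes were tested, with a median log2 fold change of 0.29 and 4 called higher. Among all tested genes, 7.57% were called higher. KLF15, a metabolic regulator of liver and muscle, had 15 to 30 counts and a log2 fold change of -0.61 (95% confidence interval -1.17 to -0.05, edgeR adjusted p = 0.0933).

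SP6 was the SP gene called. SP6 (ENSG00000189120.3, chr17:45922274-45933240), known from tooth and skin development, was at 1.34, 0.778 and 0.904 CPM in control and at 2.83, 2.70 and 2.34 CPM in the KO libraries. Its lowest KO value was above its highest control value (log2 fold change 1.38, SE 0.217, edgeR adjusted p = 1.24e-05, 2.61-fold). SP2 lies 51.2 kb away and had a log2 fold change of 0.20 (edgeR adjusted p = 0.107), and among the 18 genes tested within 500 kb of SP6 the median was -0.02.

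The ubiquitous SP factors moved less than 1.3-fold. SP1, the founding GC box activator, ranged from 175.2 to 178.5 CPM in control and from 145.6 to 150.5 CPM in the KO libraries (log2 fold change -0.25, SE 0.067, edgeR adjusted p = 0.005). SP4, best known in neurons, had a log2 fold change of 0.32 (edgeR adjusted p = 0.0297) with overlapping groups, and it lost the threshold in DESeq2 (adjusted p = 0.0753), while the edgeR adjusted p lay between 0.0609 and 0.197 without KO replicate 1, KO replicate 3, control replicate 1 or control replicate 2. SP3, which can activate or repress, had -0.12 (edgeR adjusted p = 0.31). SP5, a Wnt target, ranged from 3.06 to 3.65 CPM in control and from 2.38 to 2.89 CPM in the KO libraries, below control throughout, without passing the test (log2 fold change -0.31, edgeR adjusted p = 0.157).

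**Figure D3:**
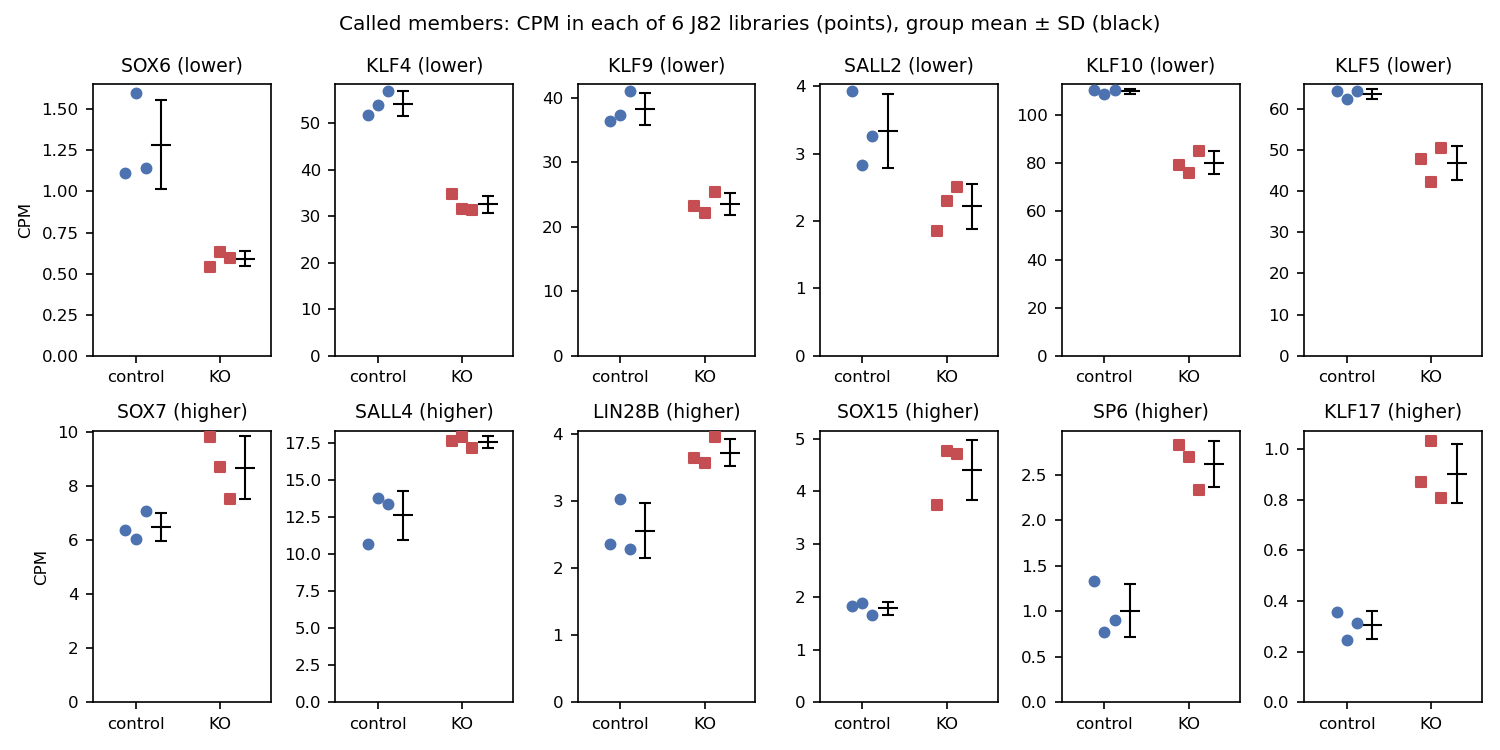
CPM (y axis from 0, its own scale in each panel) of the 12 called members in each control library (circles) and KO library (squares), with mean ± SD in black. In each panel the 3 KO libraries lie wholly below or wholly above the 3 control libraries; SOX6, SP6 and KLF17 lie under 3 CPM in every library.

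In the SOX family, SOX15 and SOX7 rose and SOX6 fell, while the members with the highest levels did not pass the test. SOX15 (ENSG00000129194.3, chr17:7491496-7493412), the single SOXG factor, known from trophoblast and muscle precursors, was at 1.83, 1.88 and 1.65 CPM in control and at 3.75, 4.76 and 4.71 CPM in the KO libraries. It was 2.49-fold higher with no overlap (log2 fold change 1.31, SE 0.166, edgeR adjusted p = 3.9e-07). Without SOX15, chosen after its values were seen, the log2 ratio of the summed SOX level moved from 0.08 to 0.03. Exons of SOX15 share 35 bp with MPDU1 on the opposite strand, and the strand setting of the counting was not stated. MPDU1 had 1612 to 2791 counts per library, beside 41 to 120 for SOX15, and a log2 fold change of 0.28 (edgeR adjusted p = 0.0125), and its part in the SOX15 result was not tested. Of 44 other genes tested within 500 kb of SOX15, 9 were called higher and 2 lower, with a median log2 fold change of 0.21. Among all tested genes, 7.57% were called higher and 8.39% lower.

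SOX7 (ENSG00000171056.6), a SOXF factor of endoderm and endothelium, was at 6.37, 6.06 and 7.07 CPM in control and at 9.83, 8.72 and 7.52 CPM in the KO libraries. KO replicate 3 came close to control replicate 3 (log2 fold change 0.41, SE 0.122, edgeR adjusted p = 0.0112). The log2 fold change was 0.32 without KO replicate 1 (edgeR adjusted p = 0.0813) and 0.36 without control replicate 2 (edgeR adjusted p = 0.0531). SOX7 shares 1268 bp of exon (39.4%) with PINX1 on the same strand in the newer annotation. The PINX1 row had 0 counts in all libraries. How reads in shared exons were counted was not stated, so that 0 does not show that SOX7 counts were unaffected. Of the other SOXF factors, SOX18 had 1 to 6 counts and SOX17, of endoderm, had 0.

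The SOXD factors, which pair through a coiled coil and lack an activation domain of their own, had KO libraries below the control libraries without overlap, beside 41.3% of all tested genes whose groups did not overlap in either direction. SOX6 was the member called. SOX6 (ENSG00000110693.11, chr11:15987995-16761138), of cartilage, muscle and red cells, was at 1.11, 1.597 and 1.14 CPM in control and at 0.543, 0.634 and 0.595 CPM in the KO libraries, from 10 to 39 counts. Each KO value was at most 0.634 CPM while each control value was above 1.1 CPM (log2 fold change -1.10, 95% confidence interval -1.67 to -0.54, edgeR adjusted p = 0.0028). SOX13, of T cells and vessels, went from 31.3 ± 2.84 to 25.2 ± 1.88 CPM (log2 fold change -0.31, edgeR adjusted p = 0.00879), short of 1.3-fold. SOX5 did not pass the test (log2 fold change -0.22, 95% confidence interval -0.55 to 0.10, edgeR adjusted p = 0.306).

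SOX4, SOX9 and SOX12 carried most of the SOX transcript and were not called. SOX4, a SOXC activator often high in carcinomas, was at 91.5, 91.0 and 97.8 CPM in control and at 105.3, 97.4 and 101.1 CPM in the KO libraries (log2 fold change 0.12, 95% confidence interval -0.03 to 0.26, edgeR adjusted p = 0.236). SOX9, of cartilage, testis and many epithelial progenitors, had 0.07 (-0.09 to 0.24) with overlapping groups. SOX12 had -0.14 (-0.31 to 0.03, edgeR adjusted p = 0.209). These intervals bound the change of each gene at less than 1.3-fold in either direction. SOX2, the SOXB1 factor of pluripotent and neural stem cells, had at most 1 count in any library. SOX1, SOX3, SOX8, SOX11, SOX14 and SOX21 had 0 in all of them, SOX10, of neural crest, had at most 1 and SOX30, of testis, at most 3.

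Among the pluripotency genes, SALL4 and LIN28B rose, SALL2 fell and the core factors were near or at 0. SALL4 (ENSG00000101115.8, chr20:50398870-50419060), a spalt-like zinc finger factor that works with POU5F1, was at 10.7, 13.8 and 13.4 CPM in control and at 17.6, 17.9 and 17.1 CPM in the KO libraries. The KO values lay close together above the control values (log2 fold change 0.47, SE 0.102, edgeR adjusted p = 6.58e-04). Without control replicate 1, its lowest library, the log2 fold change was 0.36, short of the fold threshold (edgeR adjusted p = 0.00315). SALL2 (ENSG00000165821.7, chr14:21989231-22005350), its relative of eye and neural development, was at 3.92, 2.83 and 3.26 CPM in control and at 1.85, 2.30 and 2.51 CPM in the KO libraries. The groups did not overlap (log2 fold change -0.57, SE 0.175, edgeR adjusted p = 0.0141), and it was lost in DESeq2 (adjusted p = 0.085) and without control replicate 1 (-0.45, edgeR adjusted p = 0.0619) or KO replicate 1 (-0.47, edgeR adjusted p = 0.0661). SALL1 had 0 counts.

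LIN28B (ENSG00000187772.6, chr6:105384491-105531207), an RNA-binding protein that blocks maturation of let-7 microRNAs, was at 2.36, 3.03 and 2.28 CPM in control and at 3.64, 3.57 and 3.95 CPM in the KO libraries. The groups did not overlap (log2 fold change 0.54, SE 0.161, edgeR adjusted p = 0.0112), but DESeq2 gave an adjusted p of 0.0736, and edgeR gave 0.46 (adjusted p = 0.0676) without control replicate 3 and 0.49 (adjusted p = 0.0554) without KO replicate 3. LIN28A, its paralogue of embryonic stem cells, had at most 2 counts.

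POU5F1, the core factor also called OCT4, had 5 to 14 counts per library and a log2 fold change of 0.24 (95% confidence interval -0.55 to 1.03, edgeR adjusted p = 0.688). That interval spans a decrease and an increase, so at this depth a change could not be seen. Its exons share 248 bp with TCF19 on the other strand, and its copy POU5F1B had at most 4 counts. NANOG and PRDM14 had 0 counts in all 6 libraries. A count of 0 allows up to 3 counts, or 0.118 to 0.163 CPM depending on the library, and covers counting error only. BMI1, a subunit of Polycomb repressive complex 1 that sustains stem cell renewal, was at 37.3, 42.8 and 43.6 CPM in control and at 39.1, 39.5 and 50.4 CPM in the KO libraries, with overlapping groups (log2 fold change 0.06, 95% confidence interval -0.13 to 0.25, edgeR adjusted p = 0.661). Exons of BMI1 share 1000 bp (22.75%) with COMMD3-BMI1 on the same strand, whose row had 0 counts, and the effect on the BMI1 counts was not tested.

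The rest of the 19 members under the filter were SP8 with 0 counts and SP7, the bone factor, with at most 1. Together, 12 of the 19 had 0 counts in all libraries, and a further 7 had between 0 and 6.

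Genes that work with these factors were followed through 8 lists holding 142 genes, of which 91 were tested. Of those, 6 (6.59%) were called lower and 15 (16.5%) higher, beside 8.39% and 7.57% of all tested genes. The lists were chosen with earlier results of these data known, so these shares only describe the genes listed. In the pluripotency network, 2 of 9 tested genes rose and 1 fell. MYC, the oncogenic partner of SOX2, KLF4 and POU5F1 in reprogramming, was at 49.6, 45.9 and 47.2 CPM in control and at 81.2, 79.4 and 77.4 CPM in the KO libraries (log2 fold change 0.74, SE 0.074, edgeR adjusted p = 5.36e-09). NR5A2, a nuclear receptor that can activate POU5F1, rose by 0.69 on the log2 scale (edgeR adjusted p = 7.32e-04), and TBX3, a T-box factor, fell by 0.47 (edgeR adjusted p = 5.35e-06). MYCN, picked out after its values were seen, had 0 counts in each control library and 3, 11 and 6 in the KO libraries, under the filter. The list held 27 genes, and among the 9 tested DNMT3B and TERT were not called.

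The list of the LIN28 and let-7 axis holds let-7 targets and processing enzymes together. Of its 18 tested genes 4 rose, beside 7.57% of all tested genes called higher. By edgeR 0 were called lower, as by DESeq2, and 8 of the 18 had an unadjusted p under 0.05. HMGA2, a chromatin protein and classic let-7 target, went from 28.2 ± 2.34 to 48.8 ± 2.39 CPM (log2 fold change 0.79, SE 0.083, edgeR adjusted p = 1.57e-08). IGF2BP2, an RNA-binding protein, rose by 0.51 on the log2 scale (edgeR adjusted p = 1.91e-06), HMGA1 by 0.51 (edgeR adjusted p = 1.17e-05) and ARID3A by 0.65 (edgeR adjusted p = 9.21e-05). The let-7 target NRAS and the processing enzymes DICER1 and DROSHA were not called. IGF2BP1 (0.35, edgeR adjusted p = 0.0104) and TUT4 (0.26, edgeR adjusted p = 0.011) rose short of 1.3-fold, with KO libraries wholly above control. IGF2BP3, of the same list, lay below control in every KO library without passing the test (log2 fold change -0.22, edgeR adjusted p = 0.0566). The let-7 microRNAs themselves were not measured by this assay.

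The known KLF targets split, with 3 of 14 tested lower and 6 higher, beside 8.39% and 7.57% of all tested genes. TAGLN, a smooth muscle actin-binding protein, went from 11.1 ± 0.959 to 74.6 ± 4.38 CPM (log2 fold change 2.75, SE 0.090, edgeR adjusted p = 1.38e-19), EDN1, the vasoconstrictor endothelin, rose by 1.25 on the log2 scale (edgeR adjusted p = 3.98e-14) and VEGFA, the vascular growth factor, by 1.004 (edgeR adjusted p = 3.51e-12). KRT19, an epithelial keratin, fell by 0.70 (edgeR adjusted p = 8.06e-08) and THBD, thrombomodulin, by 0.77 (edgeR adjusted p = 1.3e-06). CDKN1A, the cell cycle inhibitor that KLF4 activates, had 0.02 (edgeR adjusted p = 0.893). ACTA2 and MYH11, also smooth muscle genes of this list, were not called. Their log2 fold changes were -0.23 (edgeR adjusted p = 0.489) and 0.04 (edgeR adjusted p = 0.947).

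Polycomb partners of BMI1 and co-regulators of KLF and SP factors were mostly not called. Of 22 Polycomb genes tested, CBX6 was called (higher, log2 fold change 0.39, edgeR adjusted p = 4.03e-04) and 0 were called lower in edgeR or DESeq2, with 6 at an unadjusted p under 0.05. Short of 1.3-fold at an adjusted p under 0.05 were CBX7 (-0.35, edgeR adjusted p = 0.0069), PCGF1 (-0.34, edgeR adjusted p = 0.00827), CDKN2A (-0.26, edgeR adjusted p = 0.0239) and, higher, PCGF3 (0.19, edgeR adjusted p = 0.0497). Of 14 co-regulators and finger relatives, WT1, a zinc finger factor of kidney development, was called (higher, 0.49, edgeR adjusted p = 0.00155). By edgeR or DESeq2, 0 were called lower, and 7 had an unadjusted p under 0.05. CtBP, Sin3 and histone deacetylase genes were expressed and not called. Short of 1.3-fold at an adjusted p under 0.05 were SIN3A (log2 fold change -0.25, edgeR adjusted p = 0.00984), HDAC1 (-0.23, edgeR adjusted p = 0.0102) and WWP1 (-0.30, edgeR adjusted p = 0.00453), with KO libraries wholly below control. HDAC2 lay above control in every KO library without passing the test (0.18, edgeR adjusted p = 0.0557).

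SOX target lists rested on few expressed genes. The cartilage list of SOX9 had 2 of 14 genes tested, and COL9A2, a cartilage collagen, fell by 0.55 on the log2 scale (edgeR adjusted p = 2.18e-05), while ACAN and COL2A1 had 0 or at most 1 count. In the neural crest list, edgeR called 0 of 4 tested genes in either direction, DESeq2 called 0 lower and 1 higher, and 2 had an unadjusted p under 0.05. Among SOX partners and SOXC targets, POU3F2, a neural POU factor, fell by 0.71 (edgeR adjusted p = 0.00248) and TCF7L1, a Wnt effector, rose by 0.43 (edgeR adjusted p = 0.0189, DESeq2 adjusted p = 0.0951), of 8 tested.

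**Figure D4:**
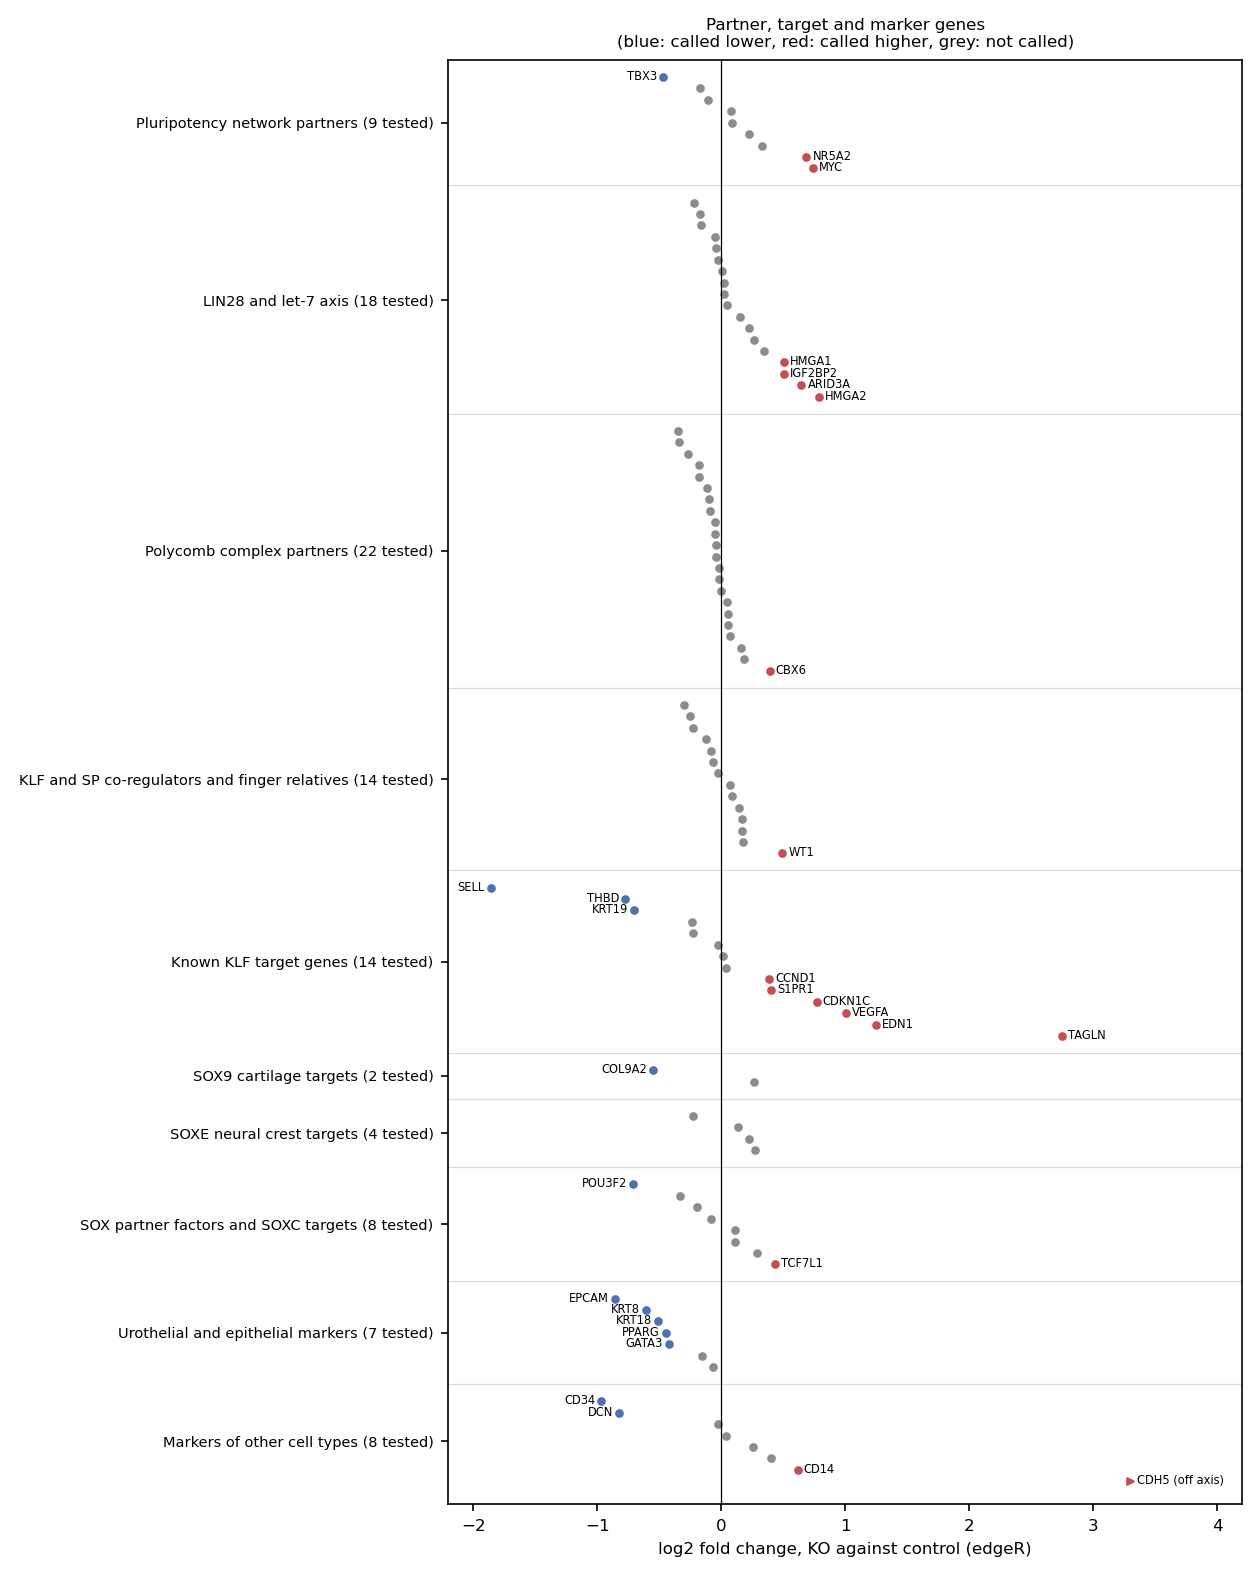
Log2 fold change, KO against control (x axis), of each tested gene in 8 partner and target lists and 2 marker lists; each point is a gene, blue for called lower, red for called higher and grey for not called. MYC, HMGA2 and TAGLN lie to the right, the 5 called urothelial and epithelial markers to the left, and CDH5, with at most 1 count in each control library, is off the axis.

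Of 16 urothelial and epithelial markers 7 were tested, and 5 fell: KRT8 by 0.60, KRT18 by 0.51, PPARG by 0.45, GATA3 by 0.42 and EPCAM by 0.86 on the log2 scale (edgeR adjusted p between 3.11e-06 and 0.0024). KRT7, one of the most abundant of the list, had a log2 fold change of -0.07 (edgeR adjusted p = 0.575) and UPK3B of -0.15 (edgeR adjusted p = 0.76). Of all tested genes, 8.39% were called lower and 7.57% higher. None of the markers rose in edgeR or DESeq2, that is 0 of 7, and 5 had an unadjusted p under 0.05. Summed over the list, the level was 3057 to 3855 CPM in control and 2414 to 2686 CPM in the KO libraries. The defining uroplakin UPK3A was at 0 in all libraries, UPK1A, UPK1B, KRT5 and KRT14 had at most 1 count, KRT20 at most 2, CDH1 at most 3 and UPK2 2 to 5. TP63, a basal cell factor under the filter, had 1 count in each control library and 4, 9 and 5 in the KO libraries. The markers of bladder epithelium seen at more than a few counts were KRT7, KRT8, KRT18, EPCAM, GATA3, PPARG and UPK3B. Their part in the KLF4 and KLF5 results was not tested. In bulk libraries, fewer cells of a type and less RNA per cell cannot be told apart.

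Markers of other cell types summed to 103.7 to 112.9 CPM in control and 101.1 to 114.1 CPM in the KO libraries. Of 8 tested, 2 were called lower and 2 higher, beside 8.39% and 7.57% of all tested genes. CD3E and MS4A1, of T and B cells, were at 0 in all libraries. CDH5, an endothelial cadherin, had 0 to 1 counts in control and 18 to 26 in the KO libraries, and VWF and TEK, also of endothelium, had at most 7 and at most 2 counts. CD34, which endothelium and blood progenitors share, went the other way, with 32 to 36 counts in control and 12 to 21 in the KO libraries (log2 fold change -0.97, edgeR adjusted p = 0.0047, DESeq2 adjusted p = 0.0555). DCN, of fibroblasts, fell by 0.82 on the log2 scale (edgeR adjusted p = 6.22e-07), and CD14, of monocytes, rose by 0.62 (edgeR adjusted p = 0.00129). SOX7, SOX18 and KLF2 are used by endothelium too, and the part of these markers in the SOX7 result was not tested.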

How the data were processed

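Raw read counts per gene, deposited by the authors, were used for 3 control and 3 KO libraries of J82 cells. The authors aligned paired reads of 75 bp to hg19 with STAR and assigned them to GENCODE release 19 genes with featureCounts of Subread; versions, strand and multi-mapping settings were not given in the sources used here, so overlapping genes and copies are uncertain. No replicates were pooled and 0 columns belonged to other samples. Groups came from the sample titles. Libraries held 18408134 to 25350908 counts.

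Symbols, exons and gene coordinates were taken from GENCODE release 44 on GRCh37, the same assembly as hg19, matched on identifier for 55538 of 57820 rows (96.05%). The members were those whose current symbol met the rule. Members and partner lists were chosen with earlier results of these data known, and 173 of 176 list symbols matched. Some list genes are not reported here.

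Genes passing filterByExpr were tested with edgeR 4.0.16 in R 4.3.3 (quasi-likelihood, robust, TMM scaling, group alone in the model) on the deposited counts, and p-values were adjusted over all tested genes by Benjamini-Hochberg. The thresholds, an adjusted p of 0.05 and a fold change of 1.3, are those of the study, which used DESeq2, run here as an alternative (1.42.0). CPM was computed from the counts with TMM-scaled library sizes. Standard errors came from the F statistic and intervals are at 95%. Summed levels were compared by exact permutation, two-sided. Promoters came from a RefSeq table on GRCh38.p14. Genes named in full were the called members, those with an adjusted p under 0.05, the 3 with the highest level in each family, POU5F1, NANOG, SOX2, KLF4, LIN28B, SALL4 and BMI1, and up to 5 called genes per list by smallest p.

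Alternatives were RLE or library size scaling, other filters, thinned counts, other fold thresholds, a replicate block, leaving out each library, and other gene lengths.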

Additional observations from a re-analysis of the deposited data

How the results depend on the processing

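Calls for KLF4, KLF9, KLF10 and SOX15 held in all 13 alternatives, KLF5 and SALL4 in 12 and SOX7, LIN28B and SALL2 in 10. SOX6, SP6 and KLF17 held in the 12 that tested them, since a mean of at least 50 counts left them out. At a fold change over 2, members called lower numbered 1, higher 3, KLF and SP 2 and pluripotency 0, and partner genes 1 lower and 3 higher. With no fold threshold, KLF and SP members called numbered 10 and partner genes called lower 12. Under DESeq2 the pluripotency members called fell to 1. The DESeq2 median was 0.0474, over all members given a fold change there. That set includes members under the filter on low counts, so it differs from the 33 tested members. A mean of at least 50 counts gave a median of -0.0461. It left fewer members tested and also moved the fits of those kept, as for KLF4 from -0.7388 to -0.7522. Leaving out a library in turn gave 1 to 3 pluripotency members and a median from -0.0398 to 0.064. The summed KLF and SP level turned from a log2 ratio of -0.19 to 0.0107 without KLF4, KLF5, KLF9 and KLF10, an alternative chosen after seeing the data. Across single genes, 13 adjusted p values rose above the threshold, for LIN28B, SALL2, SOX7 and SP4. The replicate block gave 6 lower and 6 higher members with a median of 0.0236, and ended none of the 12 calls. Deviations of same-numbered control and KO libraries had correlations of -0.03, -0.07 and 0.05, and 1 of 6 libraries correlated best with their own number, so the numbers were not taken to pair the libraries. Precision is limited for genes with few counts, such as POU5F1, KLF17, SOX6 and KLF15, and the 19 members under the filter have no test.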
